A study of Mus musculus with 6 samples.

Results

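The genes described here are 10 genes of muscle wasting, followed in adult mouse skeletal muscle with and without Dock3, which encodes an activator of the small GTPase Rac. They are 6 ubiquitin ligase genes (Fbxo32, Trim63, Fbxo40, Fbxo31, Fbxo30 and Trim32), the FoxO transcription factor genes Foxo1 and Foxo3, the growth inhibitor gene Mstn and the lysosomal protease gene Ctsl. They were taken by symbol from a table of 54393 genes, and all 10 were found. RNA was sequenced from the tibialis anterior, a shin muscle built mainly of fast fibres, of adult mice, with 3 wild-type (WT) muscles, replicates 1, 3 and 4, and 3 muscles of the Dock3 knockout (Dock3 KO), replicates 1, 2 and 3. The titles of the WT samples begin with C57. The strain background of the Dock3 KO mice and the kind of knockout allele are not given in the sources used here. Neither is whether each muscle came from a separate mouse. The p-values therefore set the difference between genotypes against the spread between these muscles, which may not be the spread between mice.

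Muscle loses mass when protein breakdown outruns synthesis. In the ubiquitin-proteasome system a ligase picks the protein to be degraded, and F-box proteins (the Fbxo genes) are the substrate-binding subunits of SCF ligases, which are built on a cullin scaffold. FoxO factors raise transcription of Fbxo32, Trim63 and autophagy genes in fasting, disuse and disease. Insulin and IGF1 hold FoxO proteins out of the nucleus through the kinase AKT, so FoxO activity is set largely by phosphorylation, which RNA levels do not report. Myostatin, a secreted ligand of the TGF-beta family made by muscle fibres, acts through activin receptors and SMAD proteins to limit muscle size.

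For none of the 10 genes was a difference between genotypes larger than the spread between muscles detected. With limma and Benjamini-Hochberg adjustment over the 16031 genes tested, 0 of 10 had an adjusted p under 0.05, against 1.03% of all genes tested (0.443% higher and 0.586% lower in Dock3 KO). At an unadjusted p under 0.05 there were also 0 of 10, against 10.5% of all genes. Rescaled to the same total per sample, 4 of 10 were under it, and no share of all genes is given for that scaling. The value ranges of WT and Dock3 KO overlapped in all 10, while they did not overlap in 16.2% of all genes. Adjusted p-values ran from 0.599 for Ctsl to 0.981 for Fbxo30. On the log2(normalized count + 1) scale 5 genes lay above 0 and 5 below, with a median difference of -0.03 against -0.01 for all genes, whereas rescaling to the same total moved the median of all genes to -0.28 and left 1 of the 10 above 0. The 95% interval of the difference lay within 2-fold in either direction for all 10 genes, and changes inside those intervals could not be told from none with 3 muscles a group.

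The libraries were not equal in make-up. The deposited values summed to between 23520223 and 33393950 normalized counts a sample. The transcripts Gm42418 and Lars2 together took 3.00% to 3.51% of the sum in WT, 3.64% in Dock3 KO replicate 3, and 17.9% and 20.3% in Dock3 KO replicates 1 and 2. Dock3 itself, the check of the genotype labels, had 169, 161 and 118 normalized counts in the WT samples, while Dock3 KO samples had 22.4, 1.78 and 1.54, given here and below in the order of the replicate numbers. Markers of skeletal muscle fibres were abundant in every sample, with 9 of 9 above 0 and sums of 1737000 to 1939300 normalized counts. Summed markers of other cells did not overlap between genotypes for macrophages (6460 to 7228 normalized counts in WT and 5462 to 6399 in Dock3 KO), fibroblasts (14274 to 18539 and 27894 to 29818) and satellite cells (422 to 448 and 293 to 397). The sums did overlap for muscle fibres, endothelial cells, adipocytes, erythrocytes and Schwann cells. The fibroblast sum was set by 3 collagen genes, of which Col1a1 and Col3a1 were called higher in Dock3 KO (limma adjusted p 0.0228 and 0.0168), while the other 4 markers summed to 4485 to 5492 in WT and 4798 to 5657 in Dock3 KO. Without Dock3 KO replicates 1 and 2 the spread comes from the WT samples alone and the lone Dock3 KO sample is assumed to vary like them. In that fit 0 of the 10 genes passed, which says little with 1 sample, and 5 of the 10 intervals lay within 2-fold. In whole muscle, fewer cells of a type and less RNA per cell cannot be told apart.

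RefSeq (GRCm38.p6) gave promoter windows for 9 of the 10 genes. No window was available for Fbxo32, so its promoter was not searched. The 250 bases before each RefSeq start of the others were searched on both strands for a FoxO motif, GTAAACA. Only the Trim63 window held it, so that window is shown. By the GENCODE bounds of the genes the windows of Fbxo30 and Ctsl and a further window of Fbxo40 lie wholly inside the gene, and that of Foxo3 by 60 bases. The motif occurs in 3.17% of 32851 promoter windows of the same length. In the Trim63 window it reads TGTTTAC on the gene's strand, 194 to 188 bases before the start, in capitals below. Directly before it, at 200 to 195 bases, lies TGTTCT, the half-site letters of the glucocorticoid receptor, found in 16.1% of all windows. The window lies on the plus strand at chr4:134314870-134315119.

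Trim63: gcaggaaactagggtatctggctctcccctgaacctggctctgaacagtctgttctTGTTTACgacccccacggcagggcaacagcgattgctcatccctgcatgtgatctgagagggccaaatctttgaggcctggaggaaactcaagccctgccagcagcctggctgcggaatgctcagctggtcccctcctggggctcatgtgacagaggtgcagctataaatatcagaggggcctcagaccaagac

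The shorter core TAAACA, which lies inside the FoxO motif and occurs in 12.03% of windows, was found without the full motif before Trim32 (plus strand, chr4:65604800-65604829, in capitals below) and in the Ctsl window, inside the annotated gene.
Trim32: attgactaaccaTGTTTAgactctgaaacg
A match describes these letters and does not show that a factor binds there.

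The 10 genes covered a wide range of levels. Of them, 5 overlap another annotated gene, and those partners were listed at 0 to 62.8 normalized counts a sample, with Gm38034, on the strand of Foxo1, at 28.2 to 61.9. Levels of different genes were compared as normalized counts per kilobase of merged exons. Fbxo40 was highest in WT at 1385 ± 265 per kilobase (SD, n = 3), followed by Trim63 at 823 ± 159 and Fbxo32 at 675 ± 191. Fbxo31 (344 ± 31.8), Mstn (322 ± 17.9) and Ctsl (291 ± 27.7) formed a middle range. Foxo3 (124 ± 17.6), Fbxo30 (95.7 ± 7.70), Foxo1 (85.6 ± 5.35) and Trim32 (73.0 ± 26.3) were lowest. Among neighbours in this WT order, the sample ranges overlapped between Trim63 and Fbxo32, between Fbxo31 and Mstn, between Mstn and Ctsl, between Foxo3 and Fbxo30, and between Foxo1 and Trim32, so those neighbours did not differ beyond their spread. The Dock3 KO means kept this order except for 2 exchanges of neighbours, with Fbxo32 (711 ± 188) just ahead of Trim63 (709 ± 121) and Foxo1 (114 ± 45.6) ahead of Fbxo30 (99.1 ± 22.4). The choice of length mattered most for Trim63, whose level in WT was 1241 per kilobase of its longest transcript, 1.51 times that per kilobase of merged exons, and for Fbxo31, at 433. By that length the WT order of means was the same, but Trim63 (1001 to 1479) overlapped Fbxo40 (1173 to 1728) and not Fbxo32 (456 to 810), and Fbxo31 (394 to 474) overlapped Fbxo32 and not Mstn (307 to 342). Foxo3 and Fbxo30 did not overlap either, so that only the overlaps of Mstn with Ctsl and of Foxo1 with Trim32 held by both lengths. The exchange of Fbxo32 and Trim63 in Dock3 KO did not hold by that length (711 and 1069 per kilobase).

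**Figure D1:**
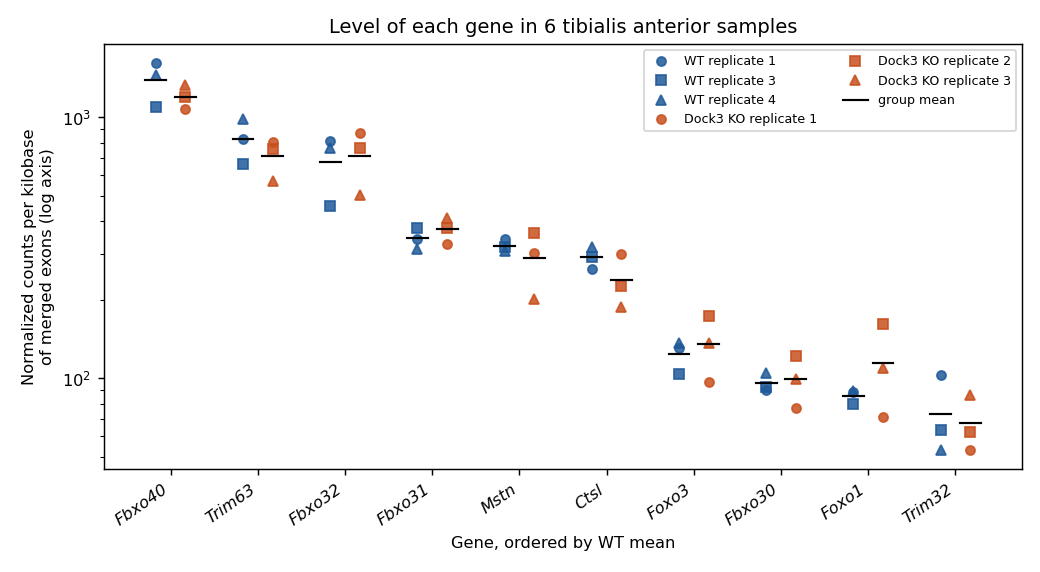
Normalized counts per kilobase of merged exons (log axis) of the 10 genes, ordered by WT mean, with 1 point a sample (blue WT, orange Dock3 KO) and a bar at each group mean. The points of both genotypes overlap for every gene, and Dock3 KO points are more spread than WT points for Foxo1 and Mstn.

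Fbxo32 and Trim63 are the ligases most often used as readouts of atrophy. Fbxo32 (chromosome 15, 58175879 to 58214932, minus strand, GENCODE M21 on GRCm38) encodes atrogin-1, an F-box subunit known to target the myogenic transcription factor MyoD for degradation. WT samples had 5652, 3184 and 5295 normalized counts and Dock3 KO samples 6072, 5295 and 3508. Each genotype therefore held a pair of high samples and 1 low one, and the ranges nearly coincide. Fbxo32 differed by 0.08 on the log2 scale (standard error 0.25, 95% interval -0.48 to 0.64, limma adjusted p 0.954). That interval corresponds to between 0.718 and 1.56 times the WT level.

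Trim63 (chromosome 4, 134315120 to 134329629, plus strand) encodes MuRF1, a RING-type ligase of the sarcomere that targets thick filament proteins. WT samples had 2343, 1888 and 2789 normalized counts, and Dock3 KO samples 2280, 2143 and 1626. Dock3 KO replicate 3 was the lowest of the 6, and the other Dock3 KO samples lay within the WT range. Trim63 differed by -0.21 on the log2 scale (standard error 0.178, 95% interval -0.61 to 0.19, limma adjusted p 0.759). Dock3 KO replicate 3, the knockout library with the low share of Gm42418 and Lars2, was the lowest Dock3 KO sample for both ligases. Without replicates 1 and 2 of Dock3 KO the log2 differences were -0.38 for Fbxo32 and -0.51 for Trim63, with limma adjusted p-values of 0.829 and 0.638. The part of library make-up in these values was not tested.

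Fbxo40, the most abundant of the 10 genes per kilobase (chromosome 16, 36963460 to 36990467, minus strand), encodes a muscle-enriched F-box protein known to target the insulin receptor substrate IRS1. Its normalized counts were 8877, 6024 and 8024 for WT, against 5913, 6588 and 7337 for Dock3 KO. WT held both the highest values and 1 value near the Dock3 KO minimum. The resulting log2 difference was -0.20 (95% interval -0.56 to 0.17, limma adjusted p 0.758).

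Fbxo31 (chromosome 8, 121549440 to 121578806, minus strand), an F-box gene known for the degradation of cyclin D1, had the smallest standard error of the 10, 0.136. Normalized counts were 1876, 2067 and 1719 for WT, against 1792, 2072 and 2262 for Dock3 KO, with the samples of both genotypes interleaved. Its interval was the narrowest of the 10, from -0.19 to 0.41 around a log2 difference of 0.11 (limma adjusted p 0.857). The ligase gene Fbxo30 (chromosome 10, 11281330 to 11298052, plus strand), whose product is also called MUSA1 and is restrained by BMP signalling, had 468, 481 and 543 normalized counts in the WT samples, and the Dock3 KO samples had 398, 631 and 515. Dock3 KO held both the lowest and the highest value. On the log2 scale Fbxo30 differed by 0.03 (95% interval -0.38 to 0.44).

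Trim32 (chromosome 4, 65604986 to 65616238, plus strand) encodes a RING-type ligase that is mutated in a form of limb-girdle muscular dystrophy. The WT samples had 332, 204 and 171 normalized counts and the Dock3 KO samples 171, 201 and 278. WT replicate 1 stood above the rest, and WT replicate 4 and Dock3 KO replicate 1 shared the lowest level. The log2 difference was -0.09 (95% interval -0.70 to 0.52, limma adjusted p 0.953), the widest interval of the 10. It was 0.18 without WT replicate 1 and -0.29 without WT replicate 4.

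**Figure D2:**
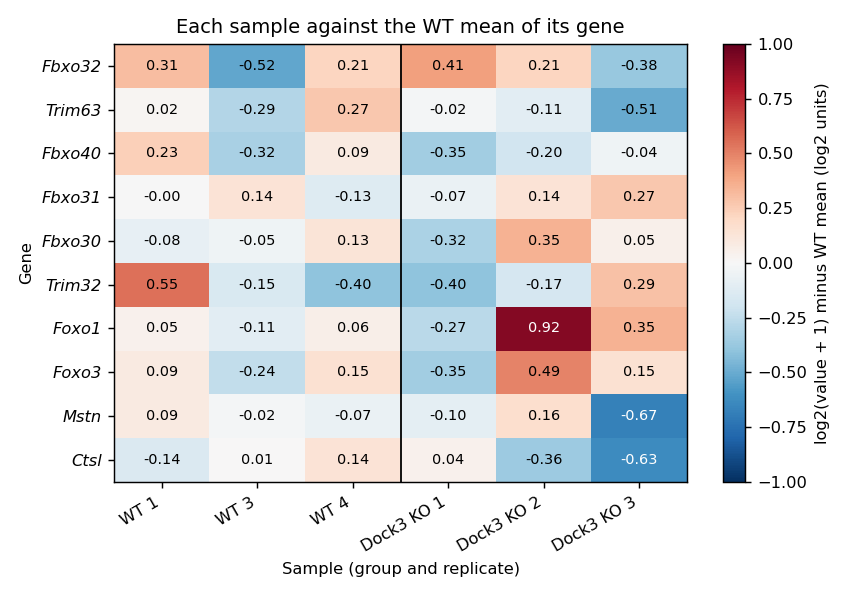
Log2(normalized count + 1) of each gene (rows) in each sample (columns) minus the mean of its WT samples, with the value in each cell. The largest departures are Foxo1 in Dock3 KO replicate 2 (0.92), Mstn and Ctsl in Dock3 KO replicate 3 (-0.67 and -0.63), and no gene departs one way in all 3 Dock3 KO samples beyond the WT range.

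Among the 10 genes, Foxo1 and Foxo3 had the highest coefficients of variation within Dock3 KO, 40.0% and 28.3%, against 6.25% and 14.2% within WT. Mstn came next, at 27.9% against 5.56%, and Fbxo30, Fbxo31 and Ctsl also varied more within Dock3 KO. Fbxo32, Trim63, Fbxo40 and Trim32 varied less within Dock3 KO than within WT. These contrasts were not tested. Foxo1 (chromosome 3, 52268336 to 52353221, plus strand) had 765, 688 and 772 normalized counts in the WT samples, whereas the Dock3 KO samples had 615, 1401 and 945. WT samples were close together, while Dock3 KO replicate 1 lay below all of them and replicates 2 and 3 above. The log2 difference of 0.33 was the largest of the 10 and had a 95% interval from -0.23 to 0.89 (limma adjusted p 0.725). It depended on single libraries, at 0.04 without Dock3 KO replicate 2 and 0.63 without Dock3 KO replicate 1 (limma adjusted p 0.981 and 0.236).

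Foxo3 (chromosome 10, 42181841 to 42276755, minus strand), the FoxO factor best known for driving Fbxo32, had 989, 784 and 1034 normalized counts in the WT samples, with 729, 1309 and 1033 for Dock3 KO. Its Dock3 KO samples took the same order as those of Foxo1, with replicate 1 lowest and replicate 2 highest. For Foxo3 the log2 difference was 0.10 (95% interval -0.37 to 0.57, limma adjusted p 0.930). Fbxo30 had that order among its Dock3 KO samples too, whereas Fbxo32 was highest in replicate 1, where both FoxO genes were lowest.

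Mstn (chromosome 1, 53061640 to 53068079, plus strand) had 925, 859 and 831 normalized counts in the WT samples, with 815, 976 and 546 for Dock3 KO. Dock3 KO replicate 3 stood well below the other 5 samples, and replicate 2 was the highest of all 6. Between genotypes Mstn differed by -0.20 on the log2 scale (95% interval -0.65 to 0.24, limma adjusted p 0.806). Without Dock3 KO replicate 3 it was 0.03, and with that library as the only Dock3 KO sample it was -0.67 (limma adjusted p 0.972 and 0.351).

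Ctsl (chromosome 13, 64359337 to 64370890, minus strand) encodes cathepsin L, a lysosomal protease whose transcript rises in many forms of atrophy. WT samples had 1705, 1887 and 2064 normalized counts, and Dock3 KO samples 1937, 1464 and 1214. Dock3 KO replicate 1 lay inside the WT range and the other Dock3 KO samples below it. The log2 difference of -0.32 (95% interval -0.70 to 0.07) had the smallest adjusted p of the 10, 0.599 (limma). Rescaled to the same total it was -0.59 and without Dock3 KO replicates 1 and 2 it was -0.63, with limma adjusted p-values of 0.152 and 0.394. Macrophages also express Ctsl, and their summed marker level moved the same way, from 6991, 6460 and 7228 in WT to 6399, 5594 and 5462 in Dock3 KO, with 9 of 10 markers lower in mean log2 value, 0 of 10 past the threshold and none at 0. Their part in the Ctsl values was not tested.

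**Figure D3:**
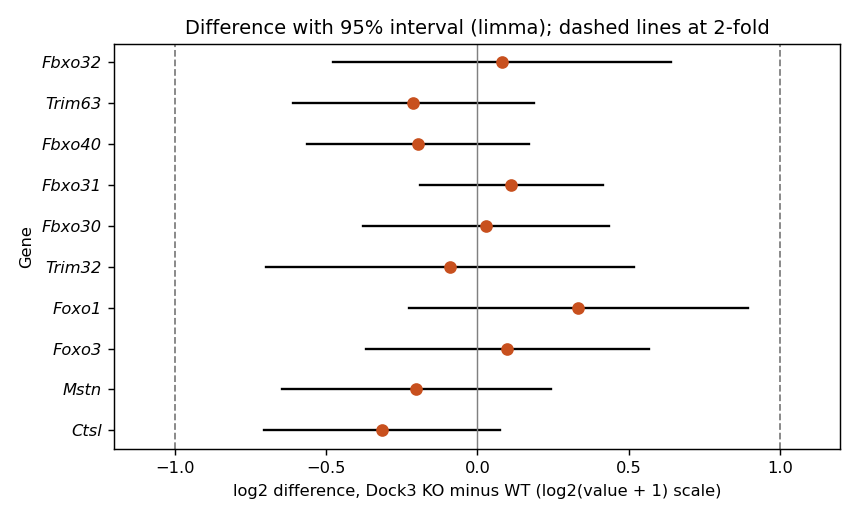
Log2 difference (Dock3 KO minus WT) of each of the 10 genes with its 95% interval from limma, and dashed lines at 2-fold in either direction. Every interval includes 0 and lies between the dashed lines, with Foxo1 reaching the farthest right (0.89) and Ctsl the farthest left (-0.70).

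The pathways around these genes were read from 9 lists holding 168 other genes, of which 164 were tested. In all, 1 gene was called higher and 1 lower in Dock3 KO, both on the list of FoxO targets and autophagy genes (25 tested, median log2 difference -0.02). That is 1.2% of the 164 genes, close to the 1.03% of all genes tested. Pdk4, a kinase gene that shuts off pyruvate dehydrogenase in fasting, rose. WT samples had 1581, 908 and 999.6 normalized counts and Dock3 KO samples 3125, 11092 and 4307. This gave a log2 difference of 2.23 (standard error 0.398, limma adjusted p 0.0301). Gadd45a, a stress gene induced by denervation, fell, with 389, 561 and 779 normalized counts for WT against 220, 260 and 204 for Dock3 KO. This gave a log2 difference of -1.28 (standard error 0.24, limma adjusted p 0.0381).

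Both calls depended on single libraries and settings. Over 19 alternatives Pdk4 passed in 12 and Gadd45a in 10, with log2 differences from 1.61 to 2.61 and from -1.56 to -1.04. The Pdk4 call was lost without WT replicate 3, WT replicate 4 or Dock3 KO replicate 3 (limma adjusted p 0.126, 0.110 and 0.0651). The Gadd45a call was lost without WT replicate 3 or 4 or any one Dock3 KO sample (limma adjusted p 0.144, 0.105, 0.0988, 0.0885 and 0.132, in order). Without Dock3 KO replicates 1 and 2 together the limma adjusted p was 0.0911 for Pdk4 and 0.350 for Gadd45a. No other gene of that list passed, and the next smallest p was that of Eif4ebp1, a repressor of translation, at a log2 difference of -0.32 (limma adjusted p 0.442).

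The other 8 lists held no called gene, and for each the 2 genes with the smallest p are given as values. Value ranges of the genotypes did not overlap in 16.2% of all genes. On these lists, in the order below, they did not overlap for 2 of 20, 1 of 16, 3 of 27 and 1 of 11 genes. For the remaining lists it was 6 of 15, 1 of 17, 5 of 20 and 2 of 13. Among 20 other muscle ubiquitin ligases (median 0.02), Fbxl22 had a log2 difference of -0.96 and Fbxo21 one of 0.38 (limma adjusted p 0.275 and 0.467). Fbxl22 encodes an F-box protein of the Z-disc, and Fbxo21 is known as SMART, another FoxO-dependent ligase. The 16 genes of the SCF core, other cullins and E2 enzymes ranged from -0.28 to 0.29. There the SCF adaptor gene Skp1a stood at 0.26 and the cullin gene Cul3 at 0.24 (limma adjusted p 0.557 and 0.568).

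Upstream of FoxO, 27 genes of insulin, IGF1, AKT and cofactor control had a median of 0.02. Sgk1, a kinase gene that like AKT phosphorylates FoxO, had 4406, 5866 and 5270 normalized counts in the WT samples, with 3526, 4064 and 3215 for Dock3 KO. Those groups do not overlap, at a log2 difference of -0.52 (limma adjusted p 0.194). Junb, whose product blocks FoxO3 binding and favours growth, had 132, 175 and 132 for WT against 628, 365 and 153 for Dock3 KO, a log2 difference of 1.17 (limma adjusted p 0.327). It passed when Dock3 KO replicate 3 was left out, at 1.72 (limma adjusted p 0.0237). Of 11 glucocorticoid response genes (median 0.18), Tsc22d3 stood at 0.47 and Cebpb at 0.53 (limma adjusted p 0.442 and 0.557).

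Around myostatin, 15 of 18 listed ligands and inhibitors were tested, with a median of -0.06. Gdf11, the closest relative of myostatin, was just outside the threshold, with 517, 363 and 472 normalized counts for WT against 274, 216 and 190 for Dock3 KO. The groups do not overlap, and the log2 difference was -0.99 (standard error 0.198, limma adjusted p 0.0537). It passed in 6 of the 19 alternatives, among them the same total per sample (-1.26, limma adjusted p 0.00965). Nog, which encodes the BMP inhibitor noggin, had 59.3, 82.7 and 78.5 for WT against 23.1, 32.1 and 39.9 for Dock3 KO, a log2 difference of -1.21 (limma adjusted p 0.152). Among 17 receptors and SMADs tested (median 0.07), the type I receptor gene Acvr1b stood at -0.35 and the SMAD repressor gene Skil at 0.42 (limma adjusted p 0.309 and 0.501).

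Among 20 lysosomal genes (median -0.09), Ctsh had 114, 102 and 94.1 normalized counts for WT against 257, 341 and 147 for Dock3 KO, a log2 difference of 1.18 (limma adjusted p 0.126). Ctsd, the gene of cathepsin D, stood at -0.36 (limma adjusted p 0.326), so the estimates for cathepsins lay on both sides of 0. Ctsh passed when Dock3 KO replicate 3 was left out, at 1.52 (limma adjusted p 0.0199). Of 13 genes for reported ligase substrates (median -0.01), Myod1, the MyoD gene, stood at -0.54 and Pias4 at 0.35 (limma adjusted p 0.249 and 0.623). For both, the groups do not overlap. Satellite cell markers, which were lower in Dock3 KO in sum, mark cells that also express Myod1. The largest part of that sum was Cdh15, with means of 322 normalized counts in WT and 256.5 in Dock3 KO. Pax7 and Myf5 overlapped between genotypes, and Calcr, too low to be tested, was higher in Dock3 KO in mean. None of these markers was called, and their part in the Myod1 values was not tested.

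**Figure D4:**
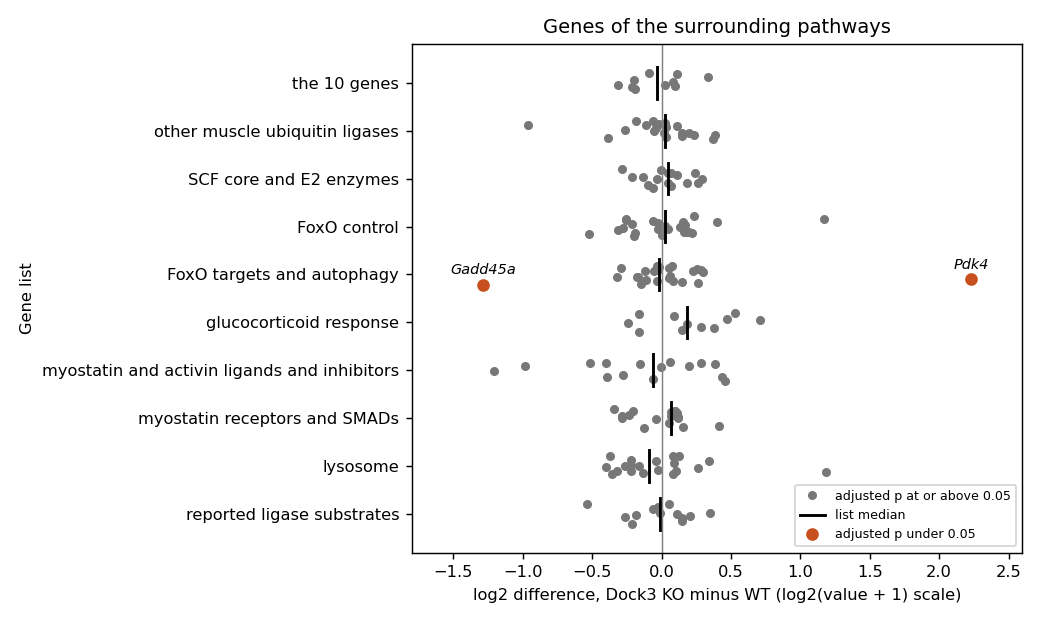
Log2 differences (Dock3 KO minus WT) of the tested genes of each list, 1 point a gene, spread vertically within a list for visibility, with a bar at each list's median. Orange points, Pdk4 at 2.23 and Gadd45a at -1.28, are the only ones with a limma adjusted p under 0.05.

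The protein-coding genes whose log2 values ran most like those of Fbxo32 over the 6 samples were Rubcn, Zbtb9 and Klhl38, with Pearson's r of 0.987, 0.976 and 0.973. Klhl38, a Kelch-like gene, had 783, 463 and 857 normalized counts for WT and 855, 811 and 464 for Dock3 KO, low in the same samples as Fbxo32. Zbtb9 was listed at 0 in those same samples, WT replicate 3 and Dock3 KO replicate 3. For Trim63 they were Cd68, Imp3 and Cst3, with r of 0.997, 0.981 and 0.975. Cd68, a macrophage marker, had 100.3, 64.9 and 131 for WT and 94.4, 79.3 and 48.8 for Dock3 KO. These are the highest of 13436 genes compared over only 6 samples that share a scaling, and 58 and 71 genes had an r above 0.9 with Fbxo32 and Trim63.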

How the data were processed

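The authors deposited 1 table of normalized counts per gene, recorded as a signal because its values are neither whole nor of fixed sum. The submitters' processing notes name FastQC, Trim Galore 0.4.5, Salmon 0.12.0, DESeq2 1.22.1, R 3.5.3 and the builds mm10 and GRCm38, without roles. The annotation and the use of strand in counting are not given in the sources used here. Per the labels' protocols, libraries were stranded, depleted of ribosomal RNA and read in pairs.

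All 54393 identifiers matched GENCODE M21 (GRCm38). The most frequent low value of each sample, taken as 1 read, gives approximately 21700000 to 32400000 reads. Only 22.9% to 35.0% of values under 20 were whole multiples of it (tolerance 0.02), so tests on counts were not run.

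Genes with a mean of at least 10 were tested on log2(value + 1) with limma 3.58.1 in R 4.3.3 (trended prior variance, no covariate) across all genes, with Benjamini-Hochberg adjustment and a threshold of 0.05. Exact permutation of 3 against 3 samples cannot give a two-sided p below 0.1. The fit was checked on simulated data. The genes and lists were chosen with earlier results of these data known. All 10 genes were named. Each list gave its called genes (at most 5) or its 2 smallest p, and Fbxo32 and Trim63 their 3 best correlated genes. Copies were searched with blastn 2.17.0 (at least 95% identity over 50% of the shorter transcript and 100 bases). Of the 10 genes, 9 had none elsewhere, and Ctsl matched Gm47551, an antisense transcript listed at 27.2 to 64.6 normalized counts. Alternatives covered pseudocounts, filters, scaling, prior variance, a covariate, the replicate block, gene type, transcript length and left-out samples.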

Additional observations from a re-analysis of the deposited data

How the results depend on the processing

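None of the 10 genes passed the threshold under any of the 19 alternatives, 190 values in all, of which 22 changed sign. The smallest limma adjusted p among them was 0.152, for Ctsl rescaled to the same total, which moved the median of all genes to -0.28. That scaling put Fbxo32 at -0.19, Fbxo30 at -0.25, Fbxo31 at -0.16 and Foxo3 at -0.18, and leaving Gm42418 and Lars2 out of the total put Fbxo32 at -0.022, Fbxo30 at -0.075 and Foxo3 at -0.0037. Log2 Gm42418 as a covariate put Fbxo32 at -0.47 and Trim32 at 0.29, and leaving out Dock3 KO replicates 1 and 2 put them at -0.38 and 0.29. The 95% interval then lay within 2-fold for 4 and for 5 of the 10 genes. With the replicate block Fbxo30 stood at -0.067 and Foxo3 at -0.021. Leaving out each sample in turn gave ranges of -0.18 to 0.31 for Fbxo32, -0.13 to 0.20 for Fbxo30, -0.29 to 0.18 for Trim32, -0.10 to 0.32 for Foxo3 and -0.38 to 0.034 for Mstn. An unadjusted limma p under 0.05 was reached by 4 of the 10 genes with the same total and by 3 with the covariate. It was reached by 2 without Dock3 KO replicate 1, and by 1 when Gm42418 and Lars2 were left out of the total. The cause of these shifts was not tested. By longest transcript instead of merged exons, the WT level per kilobase was 1241 instead of 823 for Trim63 and 433 instead of 344 for Fbxo31.

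Over all genes, 165 were called (43.0% of them higher). A prior variance without trend gave 104, the Gm42418 covariate 57, 1 Dock3 KO sample (replicate 3) 56 and protein-coding genes only 104, and leaving out each sample gave 100 (without WT replicate 4) to 159, with 102 without Dock3 KO replicate 2. Calls higher in Dock3 KO were 22.8% with the same total, 32.1% when Gm42418 and Lars2 were left out of it, 32.7% without trend, 29.8% with the covariate, 16.1% with 1 Dock3 KO sample and 51.9% for protein-coding genes. The 2 called genes of the lists became 0 without trend, with the covariate and with 1 Dock3 KO sample, 1 (Pdk4) with the replicate block, and 0 to 2 when single samples were left out. They became 3, with Gdf11 added, without a filter, with a mean of at least 50 and with both rescaled totals. The genes also changed at a count of 2, with Gdf11 in place of Pdk4 under a robust prior variance, Gdf11 in place of Gadd45a without Dock3 KO replicate 1, and Ctsh and Junb in place of both without Dock3 KO replicate 3. Replicate numbers 1 and 3 occur in both genotypes. Across genes the same-numbered deviations from group means had correlations of 0.0649 and 0.00663. With 3 samples a group, these values cannot settle whether equal numbers pair the muscles. The block gave 127 calls. Tests on whole reads were not possible, and the number of muscles limits what could be detected.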

Other observations

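Dock3 KO replicate 2 was the sample in which glucocorticoid response genes most often peaked, a pattern picked out after the values were seen. Of the 11 such genes, 8 were highest of the 6 samples there, or 72.7%, against 17.2% of all genes tested. That share was 40% for the 10 genes. Among the other lists it ran from 0% (myostatin ligands and inhibitors, and ligase substrates) to 36% (FoxO targets and autophagy genes). The glucocorticoid response genes that peaked elsewhere were Mt1 (305 normalized counts in WT replicate 4), Mt2 (109 in WT replicate 3) and Zbtb16 (2149 in Dock3 KO replicate 3). Fkbp5, a receptor co-chaperone gene induced by glucocorticoids, had 476, 516 and 612 normalized counts for WT against 409, 1150 and 701 for Dock3 KO. Ddit4, an inhibitor of mTORC1 signalling, had 226, 242 and 276 for WT against 214, 897 and 345 for Dock3 KO. Both took the order of Foxo1, lowest in Dock3 KO replicate 1 and highest in replicate 2. Neither passed the threshold (limma adjusted p 0.752 and 0.622), and the peak in 1 library is not a difference between genotypes.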
